A study of Mus musculus with 16 samples.

Results

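Lung group 2 innate lymphoid cells (ILC2s) taken 4 days after intranasal IL-33 were compared with ILC2s of naive lungs, over all genes of the array. ILC2s are lymphocytes without an antigen receptor that live in tissues, and the alarmin cytokine IL-33, released by damaged epithelium, makes them divide and secrete type 2 cytokines. The labels chose the members: 3 arrays of lung ILC2s at day 4 after IL-33 and 2 arrays of naive lung ILC2s, which makes 5 of the 16 arrays in the series. Every mouse of these groups was C57BL/6J, the label gives no agent for the naive group, and each array was labelled a biological replicate without saying whether mice were pooled. The other groups are lung ILC2s at 2 weeks and 4 months and ILC2s of the mediastinal lymph node at day 4 and 2 weeks, of which the 3 lung arrays at 2 weeks serve here as a later time point. No label used here gives the surface markers used to isolate the cells, the sex and age of the mice, or the dose of IL-33. The naive mice are labelled neither as mock-treated nor as vehicle-treated, so IL-33 and intranasal dosing cannot be told apart.

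Values are log2 signals of 22180 genes, each taken from its probe set with the highest mean among the 23521 probe sets that carry 1 gene symbol, out of 41345. Differences are day 4 minus naive on the log2 scale, given with limma's standard error (SE), and a called gene had a p under 0.05 after Benjamini-Hochberg adjustment over all 22180 genes. The signal range was narrower on the naive arrays. The interquartile range of log2 signal was 3.04, 2.95 and 2.92 on day 4 replicates 1, 2 and 3 and 2.39 and 2.45 on naive replicates 1 and 2. Replicates correlated across genes at r = 0.977 to 0.986 at day 4 and at r = 0.937 in naive lung. The 14 measured ILC2 markers averaged 8.97, 9.05 and 9.25 on the day 4 arrays and 8.77 and 8.74 on the naive arrays, above every other marker list on each of the 5 arrays.

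The test called 3677 genes (16.6%). At day 4, 2406 of them rose (10.8%) and 1271 fell (5.73%). With array weights, which give noisier arrays less influence, 1627 genes were called (7.34%), 1311 higher (5.91%) and 316 lower (1.42%), and each of them was also called with equal weights. The direction of the calls depended on scaling: 65.4% were higher at day 4 on the deposited values, against 78.8% with array medians centred and 55.5% with quantile normalization repeated (2230 genes, 10.1%, with 1238 higher, 5.58%, and 992 lower, 4.47%). Without day 4 replicate 1 the count was 2274 and without day 4 replicate 2 it was 2419. The median difference of all genes was -0.06. Of the 22180 genes, 4887 had every day 4 value above both naive values, and 4987 had every day 4 value below both. A lack of overlap between groups was therefore common, and for a single gene it adds little to the call. Among called genes 1213 rose and 401 fell by a log2 of at least 1.

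Calls also followed the level of the gene. Ranked by mean level on the 11 arrays of neither group, and divided into 4 bins of equal size, the genes of the lowest bin had 0.469% called higher and 7.56% called lower, with a median difference of -0.25. In the highest bin 28.3% were called higher and 2.51% lower, with a median of 0.40. With array weights 16.4% of the highest bin was called higher. The naive arrays also had the narrower signal range. Its part in this slope, and the part of the slope in the calls of single genes, were not tested. Lists of highly expressed genes are read below against 28.3% rather than 10.8%.

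**Figure D1:**
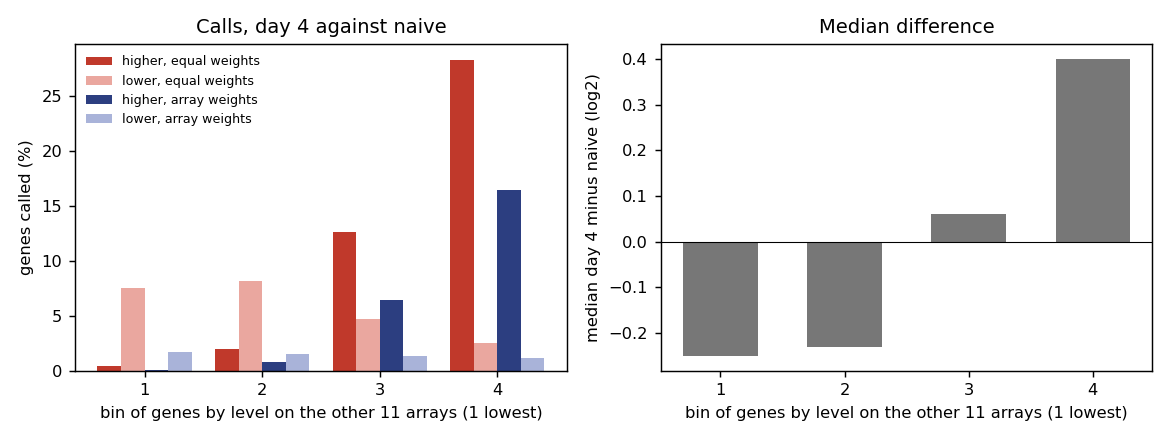
Share of genes called (left, percent) and median difference (right, log2) for day 4 against naive lung ILC2s, in 4 equal bins of genes by their mean level on the 11 arrays of the other groups. Calls higher at day 4 climb to 28.3% in the highest bin, while calls lower at day 4 are most frequent in the 2 lowest bins.

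The largest rise whose replicates lay close together, after the decoy receptor Il1r2, was that of H1f5, a linker histone made mainly in dividing cells. H1f5 read 9.14, 8.41 and 8.90 in the day 4 replicates, in order, and 3.83 and 3.03 in the naive replicates (5.39 ± 0.62, limma adjusted p = 3.18e-05). The trefoil peptide Tff1, known as a secreted mucosal protein, had signals of 9.20, 8.88 and 8.79 at day 4, against 4.06 and 4.73 in naive lung. Every day 4 array lay more than 4 log2 units above either naive array for Tff1 and H1f5, and the Tff1 difference was 4.56 ± 0.28 (adjusted p = 7.59e-08). Bex1, a small adaptor protein best known from neurons, reached 8.86, 7.93 and 8.28 at day 4 and 3.82 and 4.40 in naive cells. The proton-gated ion channel Asic3 was at 8.51, 8.22 and 8.09 at day 4 and at 4.45 and 3.73 in naive cells. The differences were 4.25 ± 0.40 for Bex1 and 4.18 ± 0.24 for Asic3. A lack of overlap between groups was a condition for the 15 largest rises. Adgrg7, an adhesion G protein-coupled receptor, had closely grouped values, 8.36, 8.19 and 8.38 at day 4 and 4.31 and 4.47 in naive lung. Its difference was 3.92 ± 0.17 (limma adjusted p = 7.62e-10). Rgs16, which speeds the shut-off of G protein signals, stood at 9.58, 9.04 and 10.37 against 5.55 and 4.63 (4.57 ± 0.47).

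A second set of large rises was uneven between the day 4 arrays. Rnase2a, a ribonuclease of the eosinophil-associated family, had 10.41, 10.01 and 5.68 on day 4 replicates 1, 2 and 3, against 2.79 and 3.79 in naive lung. Ccl17, a ligand of the chemokine receptor Ccr4, had 10.55, 10.24 and 4.41, against 3.05 and 3.48. Replicates 1 and 2 were high for both genes, and replicate 3 lay much nearer the naive arrays. The same arrays were high for Ccl24, an eosinophil attractant (9.22, 8.59 and 6.58 against 4.22 and 3.69), and for Retnla, a secreted product of alternatively activated macrophages (10.26, 9.02 and 7.29 against 3.43 and 4.41). Fabp4, a fatty acid binding protein, followed them at 7.43, 6.48 and 4.56 against 2.19 and 2.42. Beside these values, the mean of 14 alveolar macrophage markers was 5.52, 5.47 and 3.97 on day 4 replicates 1, 2 and 3 and 3.79 and 3.42 on the naive arrays. Without day 4 replicates 1 and 2 the differences were 2.38 for Rnase2a, 1.14 for Ccl17, 2.63 for Ccl24, 3.37 for Retnla and 2.25 for Fabp4, against 5.40, 5.13, 4.18, 4.94 and 3.85 with all arrays, and the calls of Ccl17, Retnla and Fabp4 were lost. That fit takes the spread of the lone day 4 array from the other groups, and the part of other cells in these rises was not tested.

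The largest fall was that of Klrd1, which encodes CD94, a lectin-like receptor of natural killer cells and some T cells. It stood at 3.01, 2.72 and 2.90 at day 4 and at 7.35 and 7.10 in naive lung (-4.35 ± 0.38, limma adjusted p = 3.66e-06). Flrt2, a membrane protein of cell adhesion and guidance, had 3.27, 3.43 and 2.96 at day 4 and 7.28 and 6.08 in naive cells (-3.46 ± 0.34). Both genes were low on every day 4 array, and a lack of overlap between groups was a condition for the 15 largest falls. Cd7, a surface protein of T and natural killer cells, fell by 3.52 ± 0.54, with 4.27, 3.99 and 3.76 at day 4 and 6.34 and 8.71 in naive lung, and its difference was -2.34 without naive replicate 2. Several other large falls rested on 1 naive array. The olfactory receptor gene Olfr775 had 2.50, 1.72 and 1.93 at day 4, beside 2.94 and 7.27 on naive replicates 1 and 2, and Svs3b, a seminal vesicle protein gene, had 2.89, 3.64 and 3.30 beside 7.60 and 4.22. Without naive replicate 2 the Olfr775 difference was -0.89, and without naive replicate 1 the Svs3b difference was -0.94, against -3.05 and -2.63 with both, and each call was lost. The Olfr1510 difference was -1.22 and the Olfr591 difference -0.94 without naive replicate 1, against -2.77 and -2.41 with both, and the Olfr591 call was lost.

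**Figure D2:**
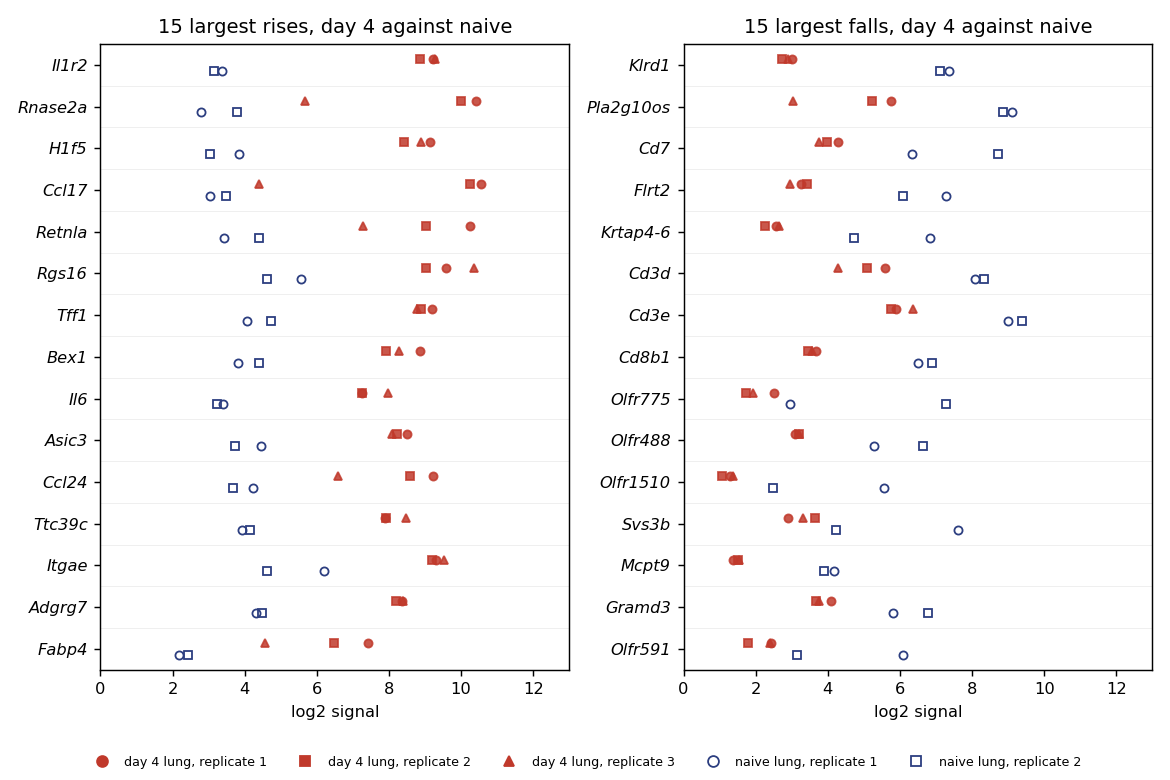
Log2 signal on each of the 5 arrays for the 15 largest rises (left) and the 15 largest falls (right) among genes called with equal and with array weights whose groups did not overlap; filled red symbols are day 4 replicates and open blue symbols are naive replicates. Rnase2a, Ccl17, Retnla, Ccl24 and Fabp4 are high on day 4 replicates 1 and 2 and lower on replicate 3, and Olfr775, Olfr1510, Svs3b and Olfr591 are high on 1 naive replicate.

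Among secreted signals, the median of 30 measured cytokines and growth factors was 0.12, and at day 4 there were 7 rises and 2 falls. Penk, which encodes the opioid peptide precursor proenkephalin, rose to 5.92, 5.34 and 6.30 at day 4, against 3.25 and 3.73 in naive lung (2.36 ± 0.32, limma adjusted p = 0.000134). The 3 day 4 arrays lay above both naive arrays. Ifng, the type 1 cytokine interferon gamma, was lower, at 3.36, 3.46 and 3.41 against 5.09 and 4.46 (-1.36 ± 0.21). Tnf, at 9.33, 8.62 and 9.59 against 8.86 and 10.04, overlapped between groups and was not called (-0.26 ± 0.36). With array weights 5 rose and 2 fell. There were 4 rises without naive replicate 1 or without day 4 replicate 1, and 5 falls without naive replicate 2.

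Cytokine receptors moved both ways, with 6 of 35 higher (17.1%), 6 lower and a median of 0.18. Of all genes 10.8% rose and 5.73% fell, and 51.4% of the list lay in the highest level bin with its 28.3% of calls. With array weights or without naive replicate 2, 4 receptors fell, and 8 fell with quantile normalization repeated. Both chains of the IL-18 receptor rose: Il18r1, the ligand-binding chain, had 8.91, 8.82 and 8.93 at day 4 and 7.62 and 6.36 in naive lung. Il18rap, the accessory chain, had 8.90, 8.97 and 9.08 at day 4 and 7.14 and 7.66 in naive lung. The day 4 values were nearly equal across replicates and lay above all naive values, and the differences were 1.89 ± 0.25 and 1.58 ± 0.18 (limma adjusted p = 0.000125 and 3.08e-05). Il21r, the receptor of IL-21, fell, with 4.85, 4.69 and 5.39 at day 4 and 6.47 and 6.48 in naive lung (-1.50 ± 0.28, and -1.09 with the call lost without day 4 replicates 1 and 2). Il2ra, the high-affinity IL-2 receptor chain, was at 8.27, 8.52 and 8.82 against 9.34 and 9.46 (-0.87 ± 0.20, adjusted p = 0.00902), a call lost without day 4 replicates 1 and 2 (-0.58). Il7r, the receptor chain for IL-7 and TSLP, differed by 0.22 ± 0.17 and was not called.

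In the TNF superfamily 7 of 25 members rose (28.0%) and 1 fell, with a median of 0.04. Of the list 52.0% lay in the highest level bin, where 28.3% of all genes rose. Ligand and receptor of the OX40 pair both rose. Tnfsf4, the ligand, had 7.49, 6.96 and 7.74 at day 4 and 2.96 and 4.59 in naive lung (3.62 ± 0.40), and Tnfrsf4, the receptor OX40, had 6.81, 5.96 and 7.25 at day 4 and 4.39 and 5.05 in naive lung (1.95 ± 0.28, limma adjusted p = 0.000265). Neither gene's groups overlapped. Tnfsf10, the death ligand TRAIL, rose to 7.60, 7.69 and 7.17 against 5.68 and 5.64 (1.82 ± 0.20). Ltb, a lymphotoxin subunit, differed by -0.15 ± 0.25 and was not called. Costimulatory and inhibitory surface molecules also rose, in 13 of 27 cases with 0 falls and a median of 0.63, in 11 cases with array weights, and in 7 without day 4 replicates 1 and 2. The 13 of 27 rises made 48.1%, and 51.9% of the list lay in the highest level bin with its 28.3% of calls. Cd83, a membrane protein induced on activated lymphocytes and dendritic cells, stood at 6.90, 6.84 and 7.67 at day 4 and at 5.10 and 5.49 in naive lung (1.84 ± 0.24). Lilrb4a, an inhibitory immunoglobulin-like receptor, had 9.70, 9.62 and 8.98 against 7.64 and 7.76 (1.73 ± 0.23). The costimulatory receptor Icos stood at 9.28, 9.47 and 9.81 against 8.95 and 9.45 and was not called (0.32 ± 0.24).

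Genes of migration and adhesion moved in both directions. Of 25 chemokine receptors and egress genes 4 rose and 5 fell, with a median of -0.22, and 3 fell without naive replicate 1. Ccr4, the receptor of Ccl17, was at 7.32, 7.33 and 7.49 at day 4 and at 5.11 and 5.20 in naive lung (2.22 ± 0.17, limma adjusted p = 1.30e-06). Ccr2, the receptor of monocyte chemoattractant proteins, was at 9.36, 9.14 and 9.06 at day 4 and at 10.20 and 10.07 in naive lung (-0.95 ± 0.17). The groups did not overlap for either. Ccr10, a receptor of skin and mucosal homing, fell by 1.37 ± 0.30, a call lost without day 4 replicates 1 and 2 (-0.80). Ccr8, often found on type 2 lymphocytes, stood at 10.10, 10.19 and 10.96 against 10.94 and 11.01 and was not called (-0.56 ± 0.32). Of 27 integrin and adhesion genes, 48.1% of them in the highest level bin with its 28.3% of calls, 9 rose (33.3%) and 1 fell. They included Cd63, a tetraspanin of granules and endosomes (2.52 ± 0.34), Alcam, a ligand of CD6 (2.02 ± 0.21), and Itgav, the alpha V integrin chain (1.78 ± 0.24). For Itgav the day 4 arrays read 7.78, 7.94 and 8.77, against 6.62 and 6.16 in naive lung.

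Genes of lipid mediators and neuropeptides fell and rose. Alox5, the 5-lipoxygenase that begins leukotriene synthesis, had 7.66, 7.40 and 7.35 at day 4 and 9.70 and 9.06 in naive lung (-1.91 ± 0.27, limma adjusted p = 0.000254). Lpcat2, an enzyme that makes platelet-activating factor, had 5.49, 6.12 and 5.42 at day 4 and 7.49 and 7.88 in naive lung (-2.01 ± 0.24). All day 4 arrays lay below both naive arrays for these enzymes, while Alox5ap, the membrane protein that presents arachidonate to 5-lipoxygenase, was higher (7.91, 7.99 and 6.93 against 6.67 and 5.98, 1.29 ± 0.29). That call was lost with quantile normalization repeated (0.91), without naive replicate 2 (0.94) and without day 4 replicates 1 and 2 (0.60). In all 1 of 16 synthesis genes rose (6.25%) and 3 fell, where 10.8% of all genes rose and 5.73% fell. Nmur1, the receptor through which the neuropeptide neuromedin U activates ILC2s in mice, was at 6.88, 6.97 and 6.82 at day 4 and at 8.04 and 8.45 in naive lung (-1.35 ± 0.24). The prostaglandin E2 receptor Ptger2 rose instead, with 6.73, 6.20 and 6.43 against 4.47 and 5.17 (1.63 ± 0.22). Among 23 receptors for neuropeptides, purines and lipid mediators, 69.6% of them in the highest level bin, 6 rose (26.1%, against 28.3% in that bin) and 1 fell.

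Transcription factors moved in both directions, and most were not called. The share of rises was 23.1% for factors of lymphoid identity, 25.7% for effector and quiescence factors and 21.4% for early response and NF-kB genes, with 73.1%, 71.4% and 96.4% of the members in the highest level bin, where 28.3% of all genes rose. Id2, which all innate lymphoid cells need, stood at 10.35, 10.50 and 10.30 at day 4 and at 10.32 and 10.43 in naive lung (0.01 ± 0.19). Gata3, the central factor of type 2 lymphocytes, differed by -0.19 ± 0.22, and neither was called. In the list of identity factors 6 of 26 were higher and 2 lower, with Nfil3, a factor of early innate lymphoid development, at 1.37 ± 0.25. The rises of that list were 2 without naive replicate 2 and 3 without day 4 replicate 1 or 3, and the falls were 0 without naive replicate 1, without day 4 replicate 1 or with array weights and 1 without naive replicate 2 or day 4 replicate 2. Of 35 effector and quiescence factors 9 rose and 6 fell, while 3 fell without naive replicate 2 or with array weights and 13 fell with quantile normalization repeated. Batf3, an AP-1 family factor, had 6.38, 6.06 and 5.34 at day 4 and 3.47 and 3.62 in naive lung (2.38 ± 0.24, limma adjusted p = 1.01e-05). Bcl6, a transcriptional repressor, had 7.98, 7.57 and 7.64 against 5.91 and 6.19 (1.68 ± 0.19). Both were higher on every day 4 array. Satb1, a chromatin organizer of T lineage cells, fell by 1.57 ± 0.28, a call lost without day 4 replicates 1 and 2 (-1.01). Egr2, an early response factor downstream of antigen and cytokine receptors, rose by 1.83 ± 0.23 and was among 6 of 28 early response and NF-kB genes called higher, with 0 lower. Without day 4 replicate 3 that list had 6 genes lower.

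Cell division genes showed the most frequent rises of the 41 functional lists. Of 64 mitosis and kinetochore genes 45 rose (70.3%) and 0 fell, with a median difference of 1.22. With array weights 33 rose and with quantile normalization repeated the median was 1.26. Without any 1 of the 5 arrays in turn, 35 to 42 rose. Ndc80, a kinetochore protein that binds spindle microtubules, had 6.44, 5.53 and 6.35 at day 4 and 2.71 and 2.75 in naive lung (3.38 ± 0.33, limma adjusted p = 8.03e-06). The mitotic ubiquitin-conjugating enzyme Ube2c had 7.24, 7.10 and 7.41 at day 4 and 5.10 and 3.52 in naive lung (2.94 ± 0.35). The groups lay apart for both genes. Ccnb2, the mitotic cyclin B2, rose by 2.83 ± 0.26, and Smc4, a condensin subunit with the highest level of the members not called, differed by 0.17 ± 0.20. Without day 4 replicates 1 and 2 the median of the mitosis list was 1.17 and 24 members rose.

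Genes of the earlier cell cycle phases rose in part. Of 40 DNA replication genes 19 rose and 0 fell with a median of 0.76, and 9 rose with array weights. Tyms, which makes thymidylate for DNA, was at 6.26, 5.86 and 5.99 at day 4 and at 4.16 and 4.25 in naive lung (1.83 ± 0.21). Mcm6, a subunit of the replicative helicase, rose by 1.43 ± 0.19. Pcna, the sliding clamp of DNA polymerases, stood at 9.28, 9.04 and 9.33 against 8.99 and 9.11 and was not called (0.17 ± 0.17). Of 25 G1 cyclins, E2F factors and Cdk inhibitors 9 rose (36.0%), with 48.0% of the list in the highest level bin. Among them were Ccna2, cyclin A2, at 2.54 ± 0.27 and E2f8, a repressor of the E2F family, at 1.23 ± 0.21. In the chromatin list 15 of 32 rose, with the helicase Hells at 1.70 ± 0.17 and Suz12, a Polycomb subunit, at 1.68 ± 0.17. DNA repair genes rose in 6 of 25 cases, 2 of them with array weights and 3 without naive replicate 2. Without day 4 replicates 1 and 2, 6 replication genes rose.

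Promoters of 3 of the mitosis genes are shown because members of that list rose together and many promoters of the list hold the CHR core, TTTGAA, the known site of the DREAM and B-Myb complexes that time mitotic transcription. The windows run from 250 bases before to 50 after each annotated start in RefSeq's GRCm38.p6, read 5′ to 3′ on the gene's strand, and capitals mark each TTTGAA or its reverse complement TTCAAA.
Ccnb2, chr9:70421505-70421804, reverse strand: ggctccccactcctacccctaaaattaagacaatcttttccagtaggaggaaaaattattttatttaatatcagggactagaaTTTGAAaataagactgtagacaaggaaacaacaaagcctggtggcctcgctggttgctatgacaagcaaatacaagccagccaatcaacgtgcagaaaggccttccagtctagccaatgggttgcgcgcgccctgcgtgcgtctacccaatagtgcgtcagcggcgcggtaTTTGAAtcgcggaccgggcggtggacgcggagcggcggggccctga
Top2a, chr11:99024140-99024439, reverse strand: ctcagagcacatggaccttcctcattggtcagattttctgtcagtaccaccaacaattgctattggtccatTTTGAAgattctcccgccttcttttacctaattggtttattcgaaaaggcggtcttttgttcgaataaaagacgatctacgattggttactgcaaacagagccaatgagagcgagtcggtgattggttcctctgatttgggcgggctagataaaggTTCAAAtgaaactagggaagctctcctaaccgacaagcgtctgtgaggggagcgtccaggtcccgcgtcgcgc
Mki67, chr7:135716330-135716629, reverse strand: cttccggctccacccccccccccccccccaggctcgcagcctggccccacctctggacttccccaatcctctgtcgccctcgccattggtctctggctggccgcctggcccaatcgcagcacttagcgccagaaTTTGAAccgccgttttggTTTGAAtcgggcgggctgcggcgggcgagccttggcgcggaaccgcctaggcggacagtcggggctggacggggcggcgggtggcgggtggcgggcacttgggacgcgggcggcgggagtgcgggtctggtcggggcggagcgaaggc
The first matched base lay at -167 and 4 from the start in Ccnb2, at -179 and -23 in Top2a and at -116 and -98 in Mki67, where negative positions precede the start. Searched on both strands, TTTGAA was in 42 of 60 promoters of the mitosis list (70.0%) and in 17.9% of all 32851 promoters of this length. The mitosis genes with it had 31 of 39 members called higher, with a median of 1.33, and those without had 11 of 16, with a median of 1.32. A match describes the letters only and is not a bound site.

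Interferon-stimulated genes had the next highest share of rises among these lists. Of 51 measured members 34 rose (66.7%) and 0 fell, with a median of 1.09. With array weights 24 rose, and with quantile normalization repeated the median was 0.85. Without any 1 of the 5 arrays in turn 25 to 31 rose, and without day 4 replicates 1 and 2 together 18 rose. Bst2, the membrane protein tetherin that holds budding virus particles, had 9.05, 9.14 and 8.37 at day 4 and 5.31 and 5.55 in naive lung. Rtp4, an inhibitor of viral replication, had 7.62, 7.84 and 7.95 against 4.65 and 5.81, and Dhx58, the RNA sensor LGP2, had 6.04, 6.11 and 5.60 against 3.36 and 3.59. All day 4 arrays, including replicate 3, lay above all naive arrays for these genes, with differences of 3.42 ± 0.31, 2.57 ± 0.37 and 2.44 ± 0.22 (limma adjusted p = 4.68e-06, 0.000244 and 4.23e-06). Cxcl10, a chemokine for activated T cells, rose by 2.70 ± 0.41. Ly6e, the member with the highest level among those not called, had 11.77, 11.79 and 11.89 at day 4 and 12.05 and 12.00 in naive lung.

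**Figure D3:**
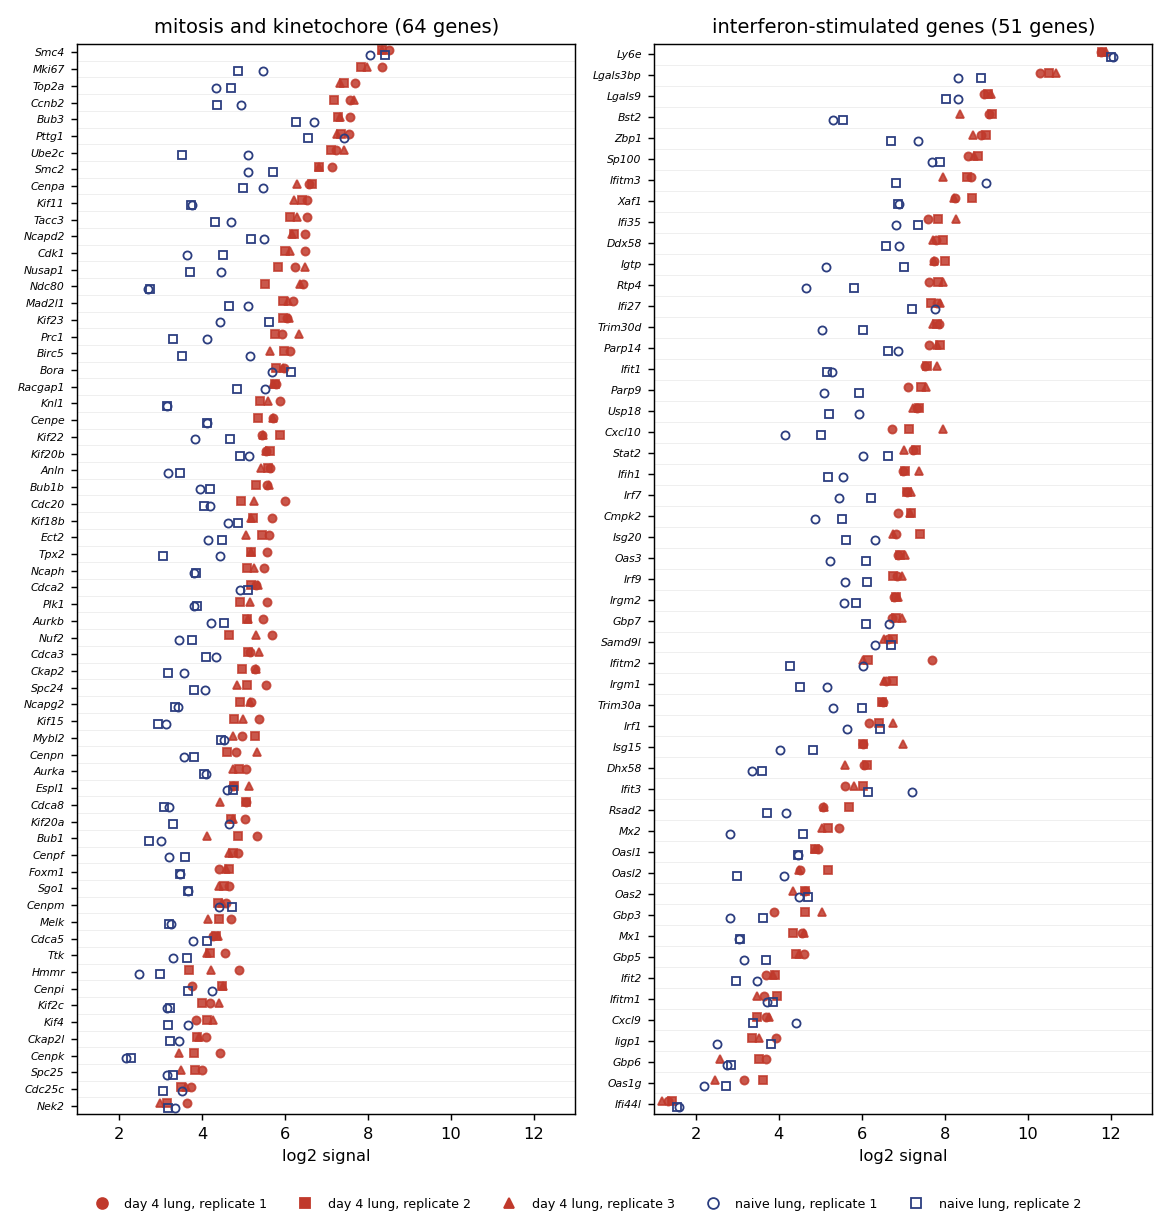
Log2 signal on each of the 5 arrays for all 64 measured mitosis and kinetochore genes (left) and all 51 measured interferon-stimulated genes (right), ordered by the day 4 mean; filled red symbols are day 4 replicates and open blue symbols are naive replicates. All 3 day 4 symbols lie to the right of both naive symbols for 57 of 64 and 38 of 51 genes, against 4887 of all 22180 genes. Of the 2 lists, 45 of 64 and 34 of 51 genes were called higher.

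Promoters of 3 called interferon-stimulated genes are shown for the interferon-stimulated response element (ISRE), to which the ISGF3 complex and interferon regulatory factors are known to bind. The windows are as above, and capitals mark the half-site pair, 2 copies of GAAA with 2 bases of any kind between them, or its reverse complement.
Bst2, chr8:71537423-71537722, reverse strand: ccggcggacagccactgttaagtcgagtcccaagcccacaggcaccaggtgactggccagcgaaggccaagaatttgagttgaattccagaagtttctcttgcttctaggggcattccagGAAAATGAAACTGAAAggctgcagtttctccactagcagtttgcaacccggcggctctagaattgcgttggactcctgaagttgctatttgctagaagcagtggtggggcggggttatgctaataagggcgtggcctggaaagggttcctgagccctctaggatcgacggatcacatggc
Ifit1, chr19:34640639-34640938, forward strand: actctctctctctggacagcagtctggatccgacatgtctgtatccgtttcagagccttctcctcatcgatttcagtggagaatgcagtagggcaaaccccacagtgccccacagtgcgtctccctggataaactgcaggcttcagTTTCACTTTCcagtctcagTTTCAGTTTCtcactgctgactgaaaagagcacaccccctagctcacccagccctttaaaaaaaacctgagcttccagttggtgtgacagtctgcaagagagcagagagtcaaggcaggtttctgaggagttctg
Cxcl10, chr5:92348840-92349139, reverse strand: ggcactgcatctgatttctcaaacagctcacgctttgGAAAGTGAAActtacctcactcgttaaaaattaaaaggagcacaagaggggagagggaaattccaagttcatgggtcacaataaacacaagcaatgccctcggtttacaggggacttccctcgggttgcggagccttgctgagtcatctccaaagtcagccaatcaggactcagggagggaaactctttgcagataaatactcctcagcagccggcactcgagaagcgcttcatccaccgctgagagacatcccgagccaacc
The first matched base lay at -130 and -124 in Bst2, where the 2 matches overlap, at -104 and -85 in Ifit1 and at -213 in Cxcl10. Of the 46 promoters of the list 23 held the pair on either strand, against 3.44% of all 32851 promoters. The 22 measured genes with the pair had 17 called higher and a median of 1.29, and the 16 without it had 9 and a median of 0.86. No test of this difference was made, and a match is not a bound site.

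Antigen presentation genes were higher in part. Of 16 class II presentation genes 8 rose and 0 fell, with a median of 1.31. H2-DMb2, a chain of the peptide-loading molecule H2-M, had 6.22, 5.28 and 5.51 at day 4 and 2.61 and 3.15 in naive lung (2.79 ± 0.48, limma adjusted p = 0.00112). Lgmn, an endosomal protease, had 7.94, 7.79 and 6.75 at day 4 and 5.17 and 4.59 in naive lung (2.61 ± 0.35). Ifi30, a thiol reductase of endosomes, was uneven, at 8.41, 8.02 and 5.77 against 5.13 and 4.56. For Ifi30 replicate 3 lay near the naive arrays, and the difference was 0.93 without day 4 replicates 1 and 2, against 2.56 with them. The median of the class II list without those arrays was 0.84 with 2 members called higher, and 5 were called higher without naive replicate 2. Beside this, the macrophage marker mean was 5.23, 5.15 and 3.96 on day 4 replicates 1, 2 and 3 and 4.66 and 4.05 on the naive arrays. The dendritic cell marker mean was 5.74, 5.67 and 4.71 on those day 4 arrays and 4.48 and 4.56 on the naive arrays. That list itself holds Ccl17, described above as uneven, and Itgax, at 6.15, 6.41 and 3.66 at day 4, so its mean is not independent of them. Monocyte and neutrophil means were also higher on day 4 replicates 1 and 2 than on replicate 3, but were highest on naive replicate 1. The part of such cells in the class II rises was not tested. Of 18 class I genes, 94.4% of them in the highest level bin with its 28.3% of calls, 6 rose (33.3%). In this list 3 rose without day 4 replicate 1 or 2, and 0 rose with quantile normalization repeated. B2m, the common light chain, differed by -0.22 ± 0.15 and was not called.

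Genes of the proteasome, of tRNA charging and of cholesterol and fatty acid synthesis also rose in part. Of 36 proteasome subunits 19 rose (52.8%) and 1 fell, where 91.7% of the members lay in the highest level bin with its 28.3% of calls. With quantile normalization repeated 8 (22.2%) rose. In that setting 5.58% of all genes rose and the share of the highest level bin was not computed, so 28.3% does not apply to it. The catalytic subunit Psmb5 had 9.47, 9.73 and 9.19 at day 4 and 7.82 and 7.86 in naive lung (1.63 ± 0.21, limma adjusted p = 8.03e-05). The regulatory subunit Psmd11 rose by 1.48 ± 0.19. Of 19 tRNA synthetases and their cofactors, 84.2% of them in the highest level bin, 10 rose (52.6%), or 4 (21.1%) with quantile normalization repeated. Rars, which charges arginine tRNA, rose, at 7.63, 7.69 and 7.53 against 5.84 and 6.25 (1.58 ± 0.17). Of 29 genes of cholesterol and fatty acid synthesis, 44.8% of them in the highest level bin, 14 rose and 0 fell, with a median of 0.68. With quantile normalization repeated 7 rose (24.1%), and 7 rose with array weights. Insig1, the sterol sensor that holds back the pathway, stood at 8.16, 8.06 and 8.32 against 6.36 and 5.89 (2.06 ± 0.23), and the enzymes Cyp51, Sqle and Hmgcs1 rose by 1.92 ± 0.20, 1.97 ± 0.32 and 1.52 ± 0.23. Single arrays moved these counts: 5 synthetases rose without day 4 replicate 2 and 6 without naive replicate 1 or day 4 replicate 3, while 8 cholesterol and fatty acid synthesis genes rose without day 4 replicate 1 and 9 without day 4 replicate 2 or naive replicate 1. Without day 4 replicates 1 and 2 together, 5 proteasome subunits, 3 synthetases and 5 cholesterol and fatty acid synthesis genes rose.

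Related amino acid exchangers changed in opposite directions. Slc7a8, the neutral amino acid exchanger LAT2, had 7.28, 7.79 and 7.49 at day 4 and 9.49 and 9.42 in naive lung (-1.94 ± 0.25, limma adjusted p = 8.71e-05). Slc7a5, the related exchanger LAT1, moved the other way, with 7.54, 7.73 and 8.23 against 6.39 and 6.57 (1.35 ± 0.21). The groups did not overlap for either exchanger. In all 12 of 23 genes of amino acid transport and arginine metabolism rose (52.2%) and 1 fell, and 7 rose without naive replicate 1. Of these genes 69.6% lay in the highest level bin with its 28.3% of calls. Got1, an aspartate aminotransferase, rose by 1.54 ± 0.27. The mitochondrial folate enzymes Mthfd2 and Shmt2 rose by 1.45 ± 0.27 and 1.36 ± 0.25, among 6 of 15 one-carbon genes that rose, or 3 without naive replicate 1. Cpt1a, which admits long-chain fatty acids into mitochondria, rose by 1.30 ± 0.19. Of 35 lipid uptake and oxidation genes, 48.6% of them in the highest level bin, 16 rose (45.7%) and 0 fell. Of these 10 rose without naive replicate 2, 8 with array weights and 8 with quantile normalization repeated. Without day 4 replicates 1 and 2, the arrays with the higher alveolar macrophage marker means, 3 rose and the median was 0.33, against 0.71 with all arrays. Fabp4, uneven between the day 4 arrays, belongs to this list, and Cpt1a stood at 7.36, 7.36 and 7.48 on them, against 5.96 and 6.24 in naive lung.

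Other abundant machinery rose in shares near or below the 28.3% of the highest level bin, except oxidative phosphorylation subunits at 34.8%. Of 57 unfolded protein response and secretion genes 15 rose (26.3%), with 93.0% in the highest level bin. With quantile normalization repeated 3.51% of them rose, where 5.58% of all genes rose. Oxidative phosphorylation subunits rose in 23 of 66 cases (34.8%), against 6.06% with quantile normalization repeated and against 1 called without day 4 replicates 1 and 2. Without day 4 replicate 1, day 4 replicate 2 or naive replicate 1 the count of those subunits was 14, 15 and 15, and that of unfolded protein response genes 8, 7 and 8. Mitochondrial ribosomal proteins rose in 17 of 65 cases (26.2%) and cytosolic ribosomal proteins in 6 of 36 (16.7%). Glycolysis and hypoxia genes rose in 7 of 25 cases (28.0%) and tricarboxylic acid cycle genes in 5 of 27 (18.5%). In the same order, 64.6%, 63.9%, 48.0% and 81.5% of the members lay in the highest level bin. Without day 4 replicate 1 these counts were 11, 2, 5 and 2, and without naive replicate 2 they were 20, 3, 2 and 6. Without day 4 replicate 2 the cytosolic ribosomal count was 3 and the tricarboxylic acid cycle count 3, and without day 4 replicate 3 the glycolysis count was 4. Gapdh, a glycolytic enzyme, stood at 10.85, 10.88 and 10.83 against 10.53 and 10.49 and was not called (0.35 ± 0.16). Atp5g3, a subunit of the ATP synthase ring, rose by 1.39 ± 0.21.

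**Figure D4:**
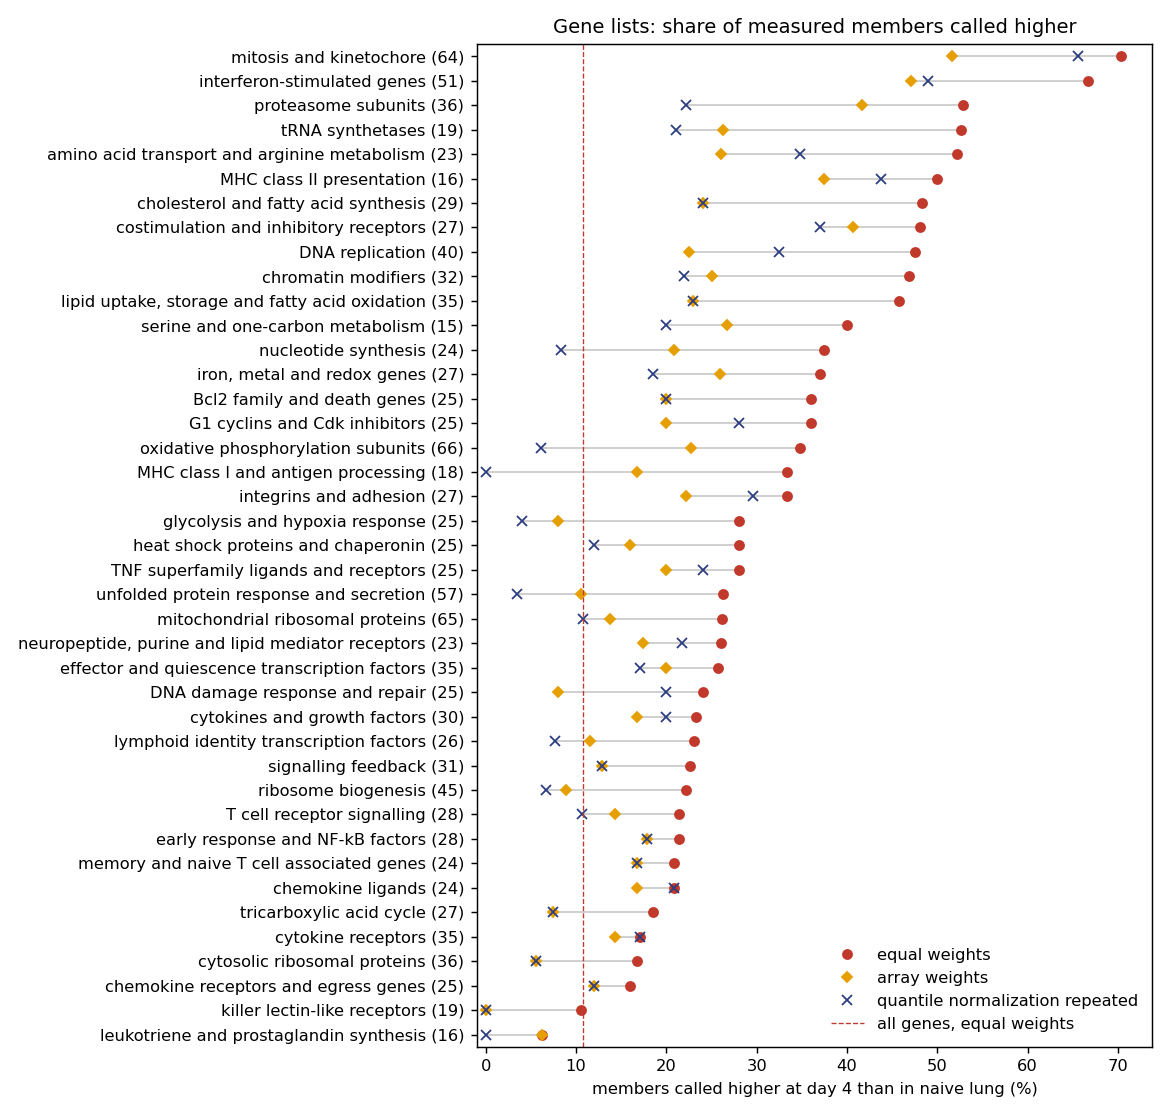
Share of measured members called higher at day 4 than in naive lung (percent) for the 41 functional lists, with the number of members in brackets; circles are equal weights, diamonds array weights, crosses quantile normalization repeated, and the dashed line is the 10.8% of all genes. Mitosis and interferon-stimulated genes keep the highest shares in all 3 settings. Oxidative phosphorylation, class I presentation and unfolded protein response lists drop to 6.06% or less with quantile normalization repeated, where 5.58% of all genes rose.

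Heat shock and chaperonin genes moved in both directions. Hspa1b, an inducible chaperone of the HSP70 family, had 6.27, 5.64 and 5.50 at day 4 and 7.84 and 7.57 in naive lung (-1.90 ± 0.37, limma adjusted p = 0.00242), while Cct5, a subunit of the chaperonin that folds tubulin and actin, rose by 1.05 ± 0.18. Of 25 heat shock and chaperonin genes 7 rose (28.0%) and 3 fell. In this list 92.0% of the members lay in the highest level bin, where 28.3% of all genes rose. Without day 4 replicate 1 or 2, 4 rose, and 1 fell without day 4 replicate 2 or with array weights. Hspa1b has a near-identical copy in the mouse genome, so its probe signal can hold both. The metallothionein Mt2, which binds zinc, had 7.12, 7.16 and 6.15 at day 4 and 3.74 and 3.99 in naive lung (2.94 ± 0.33), and the mitochondrial superoxide dismutase Sod2 rose by 1.47 ± 0.21. Casp1, the inflammasome protease, was at 7.40 or above on all day 4 arrays, against 5.87 and 4.94 on the naive arrays (2.30 ± 0.29). Of 25 Bcl2 family and death genes, 56.0% of them in the highest level bin, 9 rose (36.0%), with 1 that fell. Of those 5 rose without naive replicate 1 and 1 rose without day 4 replicates 1 and 2.

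Of the 14 ILC2 markers, all in the highest level bin, 5 rose and 2 fell, or 1 without day 4 replicates 1 and 2. Markers of other cells differed between arrays and groups. The 13 T cell markers averaged 5.31, 5.17 and 5.25 on the day 4 arrays and 6.53 and 6.37 on the naive arrays, where 7 fell and 0 rose, and 4 fell without naive replicate 1. The 13 markers of natural killer cells and ILC1s averaged 4.42, 4.17 and 4.21 at day 4 and 4.99 and 4.96 in naive lung, and 4 fell, or 2 without naive replicate 2. Klrd1, Cd7, Ifng and Satb1, lower at day 4, are genes that those cells also express, and the part of such cells in their falls was not tested. Themis, a T cell receptor signalling protein, was at 3.92, 4.20 and 4.66 against 6.69 and 6.29 (-2.23 ± 0.31, limma adjusted p = 0.000212), whereas Zap70, the kinase of that pathway, was at 7.80, 7.70 and 7.64 against 6.13 and 6.63 (1.33 ± 0.31), a rise whose call was lost without naive replicate 1 (1.08) and with quantile normalization repeated (0.95). Il23r, a receptor of ILC3s, fell by 1.47 ± 0.22. Alveolar macrophage markers rose in 5 of 14 cases, 1 of them with array weights, 2 without either naive replicate, 3 without day 4 replicate 1 or 2 and 0 without both, and Mrc1, the mannose receptor, stood at 6.30, 6.52 and 3.93 against 3.48 and 3.48. In bulk RNA, fewer cells of a type and less RNA per cell cannot be told apart.

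**Figure D5:**
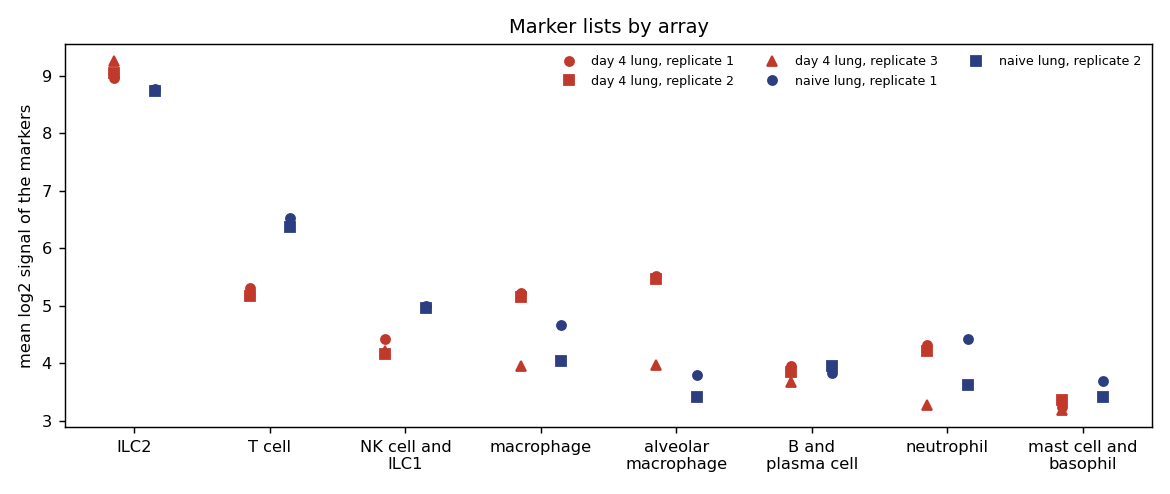
Mean log2 signal of marker lists on each array, day 4 replicates in red and naive replicates in blue, for ILC2s and 7 other cell types or pairs of types. T cell and natural killer cell means are higher on both naive arrays, and the macrophage and alveolar macrophage means are higher on day 4 replicates 1 and 2 than on replicate 3.

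A direct test of day 4 against lung ILC2s 2 weeks after IL-33 does not use the naive arrays in the difference, though it shares the day 4 arrays with the values above. It called 401 genes (1.81%), 308 higher (1.39%) and 93 lower (0.419%) at day 4, and 182 to 227 without any 1 of the arrays compared other than day 4 replicate 3, and 460 without that one. Mitosis genes were higher at day 4 in 35 of 64 cases and interferon-stimulated genes in 25 of 51. Ifit1, an inhibitor of viral RNA translation, had 7.51, 7.57 and 7.82 at day 4 and a mean of 4.39 at 2 weeks (3.24, limma adjusted p = 7.61e-05). Tff1 differed by 4.22 and Bex1 by 4.06. Other lists differed in how many members were above the later level. Among class II presentation genes 7 of 16 were called higher at day 4 than at 2 weeks, among DNA replication genes 8 of 40, among costimulatory and inhibitory molecules 5 of 27, in the TNF superfamily 5 of 25 and among chemokine ligands 5 of 24. The counts were 0 of 19 for tRNA synthetases, 1 of 29 for cholesterol and fatty acid synthesis and 2 of 36 for proteasome subunits. Insig1 stood at a mean of 8.02 at 2 weeks and differed by 0.16, and Suz12 stood at 7.52 and differed by 0.25, with neither called. Nmur1 was lower at day 4 than at 2 weeks, with a difference of -1.26 (limma adjusted p = 0.00306), and so was Slc7a8, with -1.35 (adjusted p = 0.00256). Alox5, at a mean of 7.88 at 2 weeks, did not differ past the threshold (-0.41).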

How the data were processed

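RNA of the isolated ILC2s was prepared with Trizol and given a biotin label with a Nugen Encore kit, per the labels' protocols. The authors deposited log2 signals, 1 per probe set and array. The submitters' processing notes name Affymetrix Expression Console and RMA. Their versions and the build were not given in the sources used. RMA sets probe signals to a common distribution, which hides differences in RNA content per cell. Scanner files were not used, so detection above background was not assessed, and the number of arrays limits the precision.

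The platform annotation gave 1 symbol for 23521 of 41345 probe sets, and the one with the highest mean was kept per gene, which left 22180 genes. Means of 6 groups were fitted to all 16 arrays with limma 3.58.1 in R 4.3.3, with 10 residual and 6.52 prior degrees of freedom. Tests were two-sided, with Benjamini-Hochberg adjustment and a threshold of 0.05. The labels call the arrays biological replicates without saying whether mice were pooled or how many were used. The p values therefore measure the spread between these samples, which may not be that between single mice. Each gene has 1 spread shared by all 6 groups, so an SE can be small where the 2 naive arrays disagree. For Olfr775 the naive standard deviation was 3.06 and the SE of the difference 0.81. The procedure was tested on simulated data. Alternatives were array weights, fitting the 2 groups alone, centred medians, repeated quantile normalization, a filter on group means below the 40th percentile, trend and robust options, averaged probe sets, a replicate block, a minimum log2 difference of 1, and leaving out arrays. Array weights were 1.40, 1.75 and 0.84 at day 4 and 0.44 on both naive arrays. Deviations of same-numbered day 4 and naive arrays correlated at 0.03 and -0.02, so the numbers did not pair the arrays.

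Named genes were the 15 largest rises and 15 largest falls called with equal and array weights and without overlap, up to 5 called members and the highest uncalled member of each of 41 functional and 16 marker lists, and a set of ILC2 genes. The members and lists were chosen with earlier results of these data known. Some genes central to ILC2s were counted in the lists, but their values are not reported here. Promoters come from RefSeq's GRCm38.p6, matched by symbol.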

Additional observations from a re-analysis of the deposited data

How the results depend on the processing

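Between day 4 and naive lung, 3677 genes were called. Array weights gave 1627, fitting the 2 groups alone 1380, quantile normalization repeated 2230, a log2 change of at least 1 left 1614, and dropping day 4 replicates 1 and 2 together gave 894. Leaving out 1 array gave 2274 to 3308. Between day 4 and week 2, where 401 were called, array weights gave 1409, a log2 change of at least 1 left 263, dropping day 4 replicates 1 and 2 together gave 84, and leaving out 1 array 182 to 460. The other settings stayed within 1.5 times. The cause of these shifts was not tested, apart from fewer arrays or a stricter threshold where a setting has them. With the replicate number as a block 3562 and 441 genes were called, and none of the 105 genes named changed its call.

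Of those 105 genes, 103 kept their direction and call with array weights, 95 with the 2 groups alone, 100 with quantile normalization repeated and 86 without day 4 replicates 1 and 2. The sign turned for uncalled genes only. With quantile normalization repeated Id2 was at -0.17, Pcna at -0.17 and Smc4 at -0.23. Leaving out 1 array put Tnf at -0.86 to 0.33, Id2 at -0.05 to 0.06 and Smc4 at -0.01 to 0.34, and without day 4 replicates 1 and 2 Tnf was at 0.15, Id2 at -0.08 and Gata3 at 0.24. Detection was not measured, so how far below background the dim genes lay is not known.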

Other observations

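Further lists gave these counts at day 4 against naive lung. Of 27 iron, metal and redox genes, 40.7% of them in the highest level bin with its 28.3% of calls, 10 rose (37.0%) and 0 fell. Txnrd1, the cytosolic thioredoxin reductase, was at 6.94, 7.11 and 7.18 on the day 4 arrays and 5.53 and 6.08 on the naive arrays (1.28 ± 0.19, limma adjusted p = 0.000425). Of 24 nucleotide synthesis genes, 70.8% of them in the highest level bin with its 28.3% of calls, 9 rose (37.5%) and 0 fell. They included Hprt, the purine salvage enzyme, at 8.20, 7.93 and 7.76 against 6.50 and 6.27 (1.58 ± 0.20). Of 24 chemokine ligands 5 rose (20.8%, against 10.8% of all genes) and 2 fell. Cxcl3, a chemokine that draws neutrophils, rose, at 7.45, 7.59 and 7.62 against 3.99 and 4.09. The other rises included Ccl17 and Ccl24, uneven between the day 4 arrays, and Ccl9, another chemokine, at 9.45, 9.09 and 5.84 against 5.01 and 4.41 (3.41 ± 0.85, limma adjusted p = 0.012). Ccl9 was no longer called under array weights, without naive replicate 2 (3.11), without day 4 replicate 1 (2.75), without day 4 replicate 2 (2.93) or without both of these (1.13). Without day 4 replicates 1 and 2, where the alveolar macrophage marker means were higher, 3 chemokine ligands rose. Of 31 feedback genes of signalling, 64.5% of them in the highest level bin, 7 rose (22.6%) and 2 fell, and the phosphatase Dusp2 fell by 1.34 ± 0.21. Killer lectin-like receptors rose in 2 of 19 cases (10.5%, near the 10.8% of all genes) and fell in 5. T cell receptor signalling genes, 78.6% of them in the highest level bin, rose in 6 of 28 cases (21.4%) and fell in 2. Memory and naive T cell associated genes, 66.7% of them in that bin, rose in 5 of 24 cases (20.8%) and fell in 7. In ribosome biogenesis, with 64.4% of the members in that bin, 10 of 45 genes rose (22.2%) and 1 fell. Of all genes in that bin 28.3% rose. Leaving out 1 array moved some of these counts by over 1.5 times: redox genes to 6 without day 4 replicate 1 or 2, nucleotide genes to 5 without either naive replicate, ribosome biogenesis genes to 5 without day 4 replicate 1, falls of feedback genes to 5 without day 4 replicate 3 and 1 without any other single array, falls of chemokine ligands to 1 without naive replicate 1, falls of T cell receptor signalling genes to 1 without naive replicate 2, and falls of memory and naive genes to 2 without naive replicate 1 or day 4 replicate 1 or 2 and 4 without naive replicate 2. Rises of killer lectin-like receptors became 0 without naive replicate 1 and 1 without day 4 replicate 1 or 2, and their falls became 8 without naive replicate 1 and 3 without naive replicate 2.

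Among marker lists other than those of ILC2s, T cells, natural killer cells and alveolar macrophages at most 4 members rose (dendritic cells, 4 of 13, or 2 without naive replicate 2 or day 4 replicate 1 or 2) and at most 2 fell (ILC3s, 2 of 9, and monocytes, 2 of 11, or 1 without naive replicate 1). Probe sets with several symbols or none were outside the comparison, and 1920 of 17824 of them were called (10.8%), 998 higher and 922 lower. A further motif searched on both strands, the endoplasmic reticulum stress element, was in 16.3% of 49 promoters of the unfolded protein response list against 0.119% of all. In that list 1 of the 8 genes with the element and 12 of the 39 without it were called higher, which was not tested. Other motifs were searched too. The CCAAT box was in 71.7% of the 60 mitosis promoters, against 37.4% of all. The GG and CC forms of the E2F motif were each in 18.9% of 37 DNA replication promoters, against 0.514% and 1.07%. The E-box was in 23.3% of 43 ribosome biogenesis promoters, against 7.15%. The sterol element was in 1 of 30 cholesterol and fatty acid synthesis promoters (3.33%), against 1.24%.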
